A study of Drosophila melanogaster with 12 samples.

Results

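Apterous (ap), Vestigial (vg), Nubbin (nub), Pdm2 (pdm2) and Drop (Dr) are 5 transcription factor genes known for wing disc patterning, and their levels were followed in Drosophila eye-antennal discs. They were taken up through every probe set whose only gene symbol in the platform annotation was one of these names, which gave 9 of 18952 probe sets on the array. These are 2 for ap, 2 for vg, 3 for nub, 1 for pdm2 and 1 for Dr. No probe set that lists several genes includes one of them.

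The series measured 4 genotypes with 3 biological replicates each, every array made from 30 pairs of eye-antennal discs of wandering larvae of the third instar and 100 ng of total RNA. The first genotype carried the driver ey-Gal4, the transgene UAS-wge and the alleles Su(var)3-9[1] and Su(var)3-9[2] over each other (allele-pair discs). The second carried driver and transgene without those alleles (ey>wge discs), and the parental controls carried UAS-wge alone or ey-Gal4 alone. Both groups with wge overexpression therefore share ey-Gal4 and UAS-wge, and no group carried the alleles without them. The driver is active where the eyeless enhancer is active, so a disc holds cells with and without induced wge. winged eye (wge) encodes a chromatin-associated protein, Su(var)3-9 encodes a histone methyltransferase of heterochromatin, and the series title calls the overexpressing discs transdetermined.

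In the wing disc, ap acts as the selector of dorsal identity, and its LIM-homeodomain protein works in a complex with Chip. vg works with the TEAD factor Scalloped as the selector of wing blade identity. nub and pdm2 are neighbouring POU-homeodomain genes, and nub is a marker of the developing wing pouch. Dr (also called msh) is a homeobox gene that in the wing disc lies downstream of ap in dorsal cells. Outside the wing disc, ap, vg and Dr are also expressed in muscle precursors, and nub, pdm2 and Dr in neuroblasts of the nervous system.

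Signals are the authors' MAS5 intensities on a linear scale, and a change is a difference of log2(signal + 16) with its standard error (SE) from limma. A change against both controls is the difference from the average of the UAS-wge and ey-Gal4 group means. A call in it can therefore come from a difference to only 1 of them. A probe set was tested if it exceeded its array's 40th percentile (a signal of 21.2 to 28.6) on at least 3 of the 12 arrays, which 13817 probe sets did, 8 of the 9 described here among them. A probe set is called where its p, adjusted by Benjamini-Hochberg over those 13817, is under 0.05. The discs carried the labelled tissue's markers: all 8 eye-field and retina genes chosen as markers and all 6 antennal genes lay above the 40th percentile on at least 1 array of every group. Summed over the 8 eye genes, signal was 5062 to 7548 in allele-pair discs, 7575 to 8710 in ey>wge discs, 23610 to 26750 in UAS-wge discs and 21020 to 25520 in ey-Gal4 discs. The wge probe set read 875.4, 671.7 and 443.1 in allele-pair discs, 924.6, 1115.4 and 1162.3 in ey>wge discs, 800.9, 931.3 and 826.8 in UAS-wge discs and 775.7, 810.0 and 951.2 in ey-Gal4 discs. Its difference between ey>wge discs and both controls, 0.32 ± 0.17 (SE), was not past the threshold (adjusted p = 0.498). Whether that probe set covers transcribed parts of the transgene is not recorded in the sources used here, and the level of Su(var)3-9 was not analysed here. Allele-pair replicates 2 and 3 stood apart from all other arrays: their median signals were 33.0 and 34.0, against 44.4 in allele-pair replicate 1 and 38.7 to 43.7 on the other 9 arrays. In those arrays, signal relative to the ey>wge mean was lower for genes with a longer span, with Spearman correlations of -0.302 and -0.397 over 10745 probe sets, against -0.029 in allele-pair replicate 1 and -0.018 to 0.158 on the other arrays. The 5 genes are long, with spans of 8.9 kb (Dr), 15.2 kb (vg), 21.3 kb (ap), 29.1 kb (pdm2) and 40.5 kb (nub), at percentiles 84.1 to 96.6 of all genes, so results on the allele pair against ey>wge discs are given with and without these arrays.

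ap, vg, nub and Dr were higher in ey>wge discs than in the parental controls, and pdm2 did not pass the test. One of the 8 probe sets tested, vg 1641470_s_at, passed the filter only through arrays with wge overexpression and is left out of the counts. Of the other 7, 5 rose in ey>wge discs and none fell, where 0.897% of all probe sets tested rose and 2.07% fell. These 5 stood at ranks 4, 5, 6, 8 and 9 when 13817 probe sets were ordered by change from the highest. The highest changes belonged to ap and vg, and nub and Dr followed with nearly equal values. In bulk discs, more cells expressing a gene and more RNA per cell cannot be told apart.

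**Figure D1:**
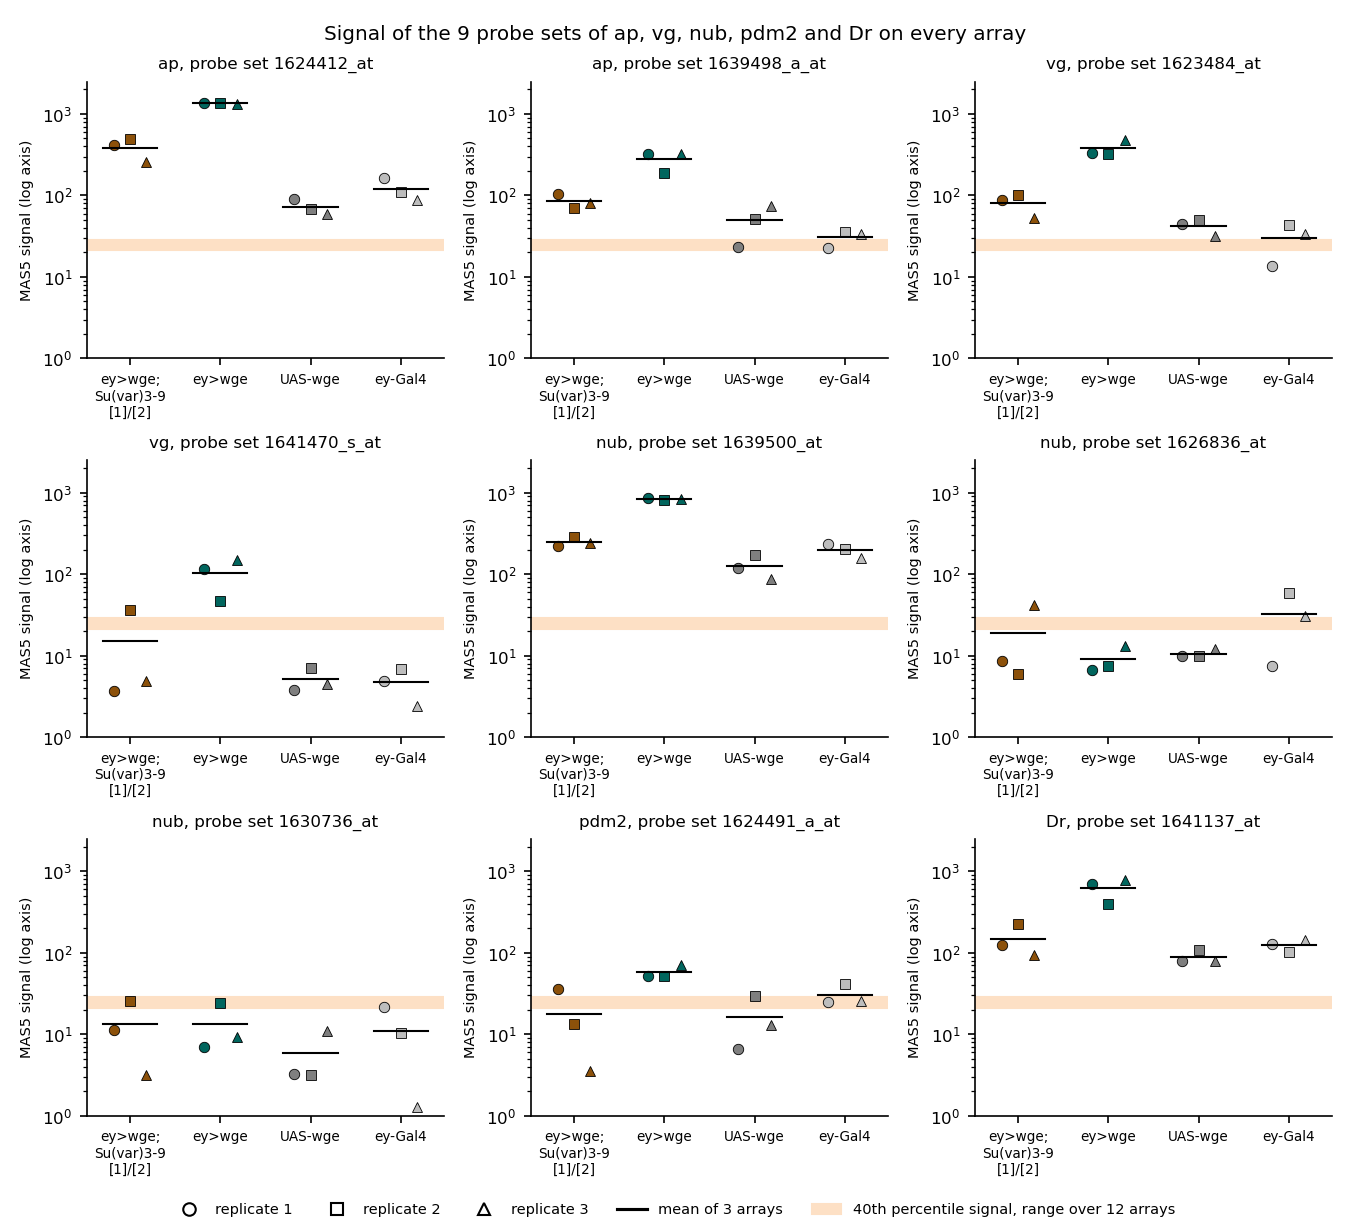
Signal of each probe set on every array (log axis, MAS5 units), with the 4 genotypes side by side, points for replicates, bars for group means and a band for the 40th percentile of the arrays. For both ap probe sets, both vg probe sets, nub 1639500_at, pdm2 and Dr, the 3 ey>wge arrays lie above all other arrays, and the allele-pair arrays lie between them and the controls for the brighter ap and vg probe sets.

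ap, the dorsal selector, was measured by 2 probe sets. The brighter, 1624412_at, read 1355.8, 1368.1 and 1313.5 in ey>wge discs, against 91.1, 67.8 and 59.9 in UAS-wge discs and 163.3, 109.9 and 88.1 in ey-Gal4 discs. All ey>wge arrays were far above all control arrays, and the mean in ey>wge discs was 1346 ± 28.6 (SD, n = 3), a ratio of 13.9 to the mean of the 6 controls. The change against both controls was 3.65 ± 0.22 (adjusted p = 2.47e-08), and it was 3.36 ± 0.25 against ey-Gal4 and 3.95 ± 0.25 against UAS-wge. The second probe set, 1639498_a_at, read 325.5, 190.5 and 325.2 in ey>wge discs, against 23.2, 51.5 and 73.8 in UAS-wge discs and 22.9, 35.3 and 34.1 in ey-Gal4 discs. It was dimmer and its ey>wge replicate 2 was the lowest of its group, but the groups did not overlap. Its change was 2.43 ± 0.29 (adjusted p = 4.03e-05), with the same direction as the brighter probe set.

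vg, the wing blade selector, also had 2 probe sets. 1623484_at read 330.2, 320.8 and 480.8 in ey>wge discs, against 45.2, 49.3 and 32.2 in UAS-wge discs and 13.6, 43.9 and 33.6 in ey-Gal4 discs. The lowest ey>wge array was well above the highest control array, and the change was 2.93 ± 0.28 (adjusted p = 3.51e-06), or 10.4 as a ratio of mean signals. 1641470_s_at read 114.7, 47.2 and 149.2 in ey>wge discs, against 3.8, 7.1 and 4.5 in UAS-wge discs and 4.9, 6.9 and 2.4 in ey-Gal4 discs. All 6 control arrays lay below their 40th percentile and hold no measured level, so the difference is given as a bound, at least 3.6-fold higher in ey>wge discs (adjusted p = 0.00112). It exceeded the 40th percentile on 3 ey>wge arrays and 1 allele-pair array, so it could be tested only because it was higher there.

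nub, the pouch gene, had 3 probe sets, of which only 1639500_at exceeded the 40th percentile on all 12 arrays. 1639500_at read 868.0, 805.9 and 826.2 in ey>wge discs, against 118.5, 172.3 and 87.4 in UAS-wge discs and 235.1, 200.6 and 157.0 in ey-Gal4 discs. The 3 ey>wge arrays lay close together and above all controls, and the change was 2.32 ± 0.20 (adjusted p = 7.74e-07). 1626836_at read 6.7, 7.4 and 13.0 in ey>wge discs, against 9.8, 9.8 and 11.9 in UAS-wge discs and 7.5, 58.3 and 30.6 in ey-Gal4 discs. Its groups overlapped and its change of -0.45 ± 0.42 did not pass the test (adjusted p = 0.781). This probe set exceeded the 40th percentile on no ey>wge or UAS-wge array, and passed the filter through 2 ey-Gal4 arrays and 1 allele-pair array. Its fitted change is therefore not a measured difference in nub. 1630736_at read 7.0, 24.0 and 9.2 in ey>wge discs, against 3.3, 3.2 and 11.0 in UAS-wge discs and 21.6, 10.4 and 1.3 in ey-Gal4 discs. It exceeded the 40th percentile on 1 of the 12 arrays, was not tested, and in a fit without the filter differed by 0.27 ± 0.33 (adjusted p = 0.876). The current gene model of nub joins 3 former gene models, and which transcripts each probe set detects is not given in the sources used here.

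pdm2, the POU gene next to nub, had signals near the filter on low values. It read 52.4, 51.8 and 70.8 in ey>wge discs, against 6.6, 29.2 and 13.0 in UAS-wge discs and 25.0, 41.4 and 25.4 in ey-Gal4 discs. The ey>wge arrays were above all 6 controls, which held for 3.21% of all probe sets tested, but the distance was small beside the spread. The mean was 58.3 ± 10.8 in ey>wge discs, against 16.3 ± 11.6 in UAS-wge discs and 30.6 ± 9.36 in ey-Gal4 discs (SD, n = 3 each). Its change of 0.97 ± 0.36 did not pass the test (adjusted p = 0.233), nor did 0.68 ± 0.42 against ey-Gal4 (0.547) or 1.25 ± 0.42 against UAS-wge (0.133).

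Dr, the dorsal homeobox gene, had 1 probe set, 1641137_at. It read 693.2, 400.7 and 780.4 in ey>wge discs, against 78.9, 109.7 and 80.3 in UAS-wge discs and 127.6, 102.9 and 144.9 in ey-Gal4 discs. Replicate 2 of the ey>wge discs was the lowest of its group, as it was for the dimmer ap and vg probe sets, and still lay well above every control. The mean was 624.8 ± 199 in ey>wge discs, against 89.6 ± 17.4 in UAS-wge discs and 125.1 ± 21.1 in ey-Gal4 discs (SD, n = 3 each). The change was 2.35 ± 0.26 (adjusted p = 1.86e-05).

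**Figure D2:**
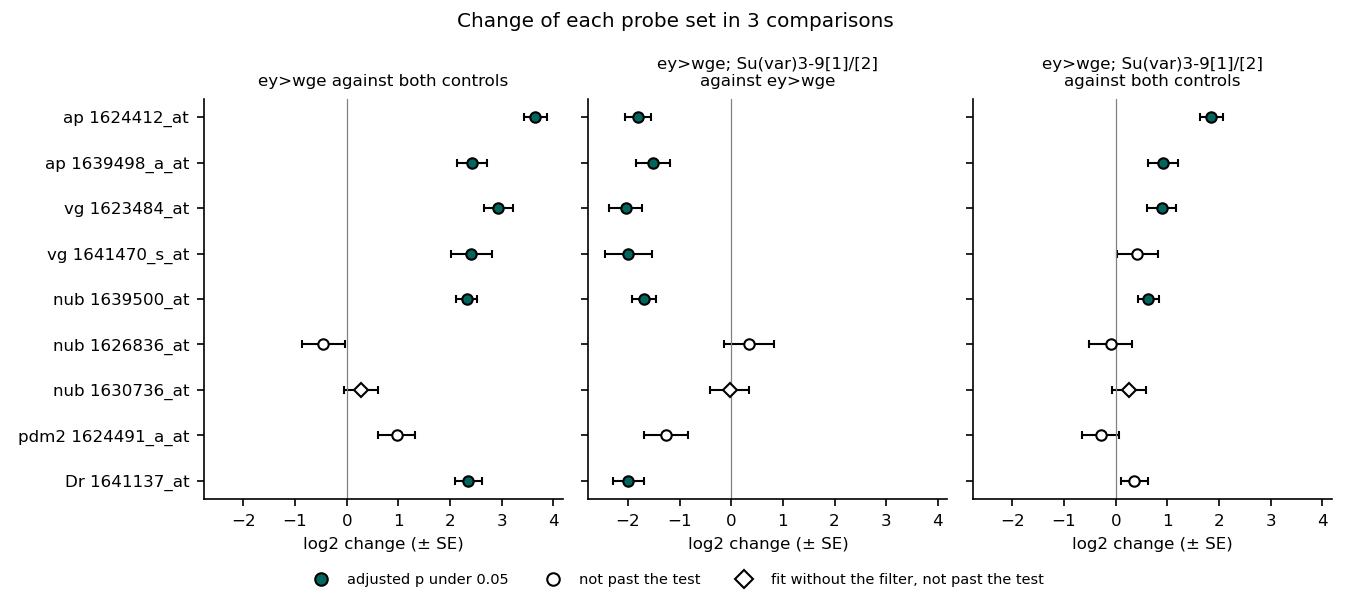
Change in log2(signal + 16) with its standard error for each probe set, a panel per comparison, filled where the adjusted p is under 0.05. nub 1630736_at is from the fit without the filter, and vg 1641470_s_at, drawn at its fitted value, had no measured level in the controls. The probe sets of ap, vg 1623484_at, nub 1639500_at and Dr are at 2.32 to 3.65 for ey>wge against both controls and at -1.52 to -2.04 for the allele pair against ey>wge.

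The same 5 probe sets rose against each parental control taken alone. Against ey-Gal4, where 1.35% of all probe sets rose, their changes were 2.01 (nub) to 3.36 (ap). Against UAS-wge, where 1.74% rose, they were 2.22 (the dimmer ap probe set) to 3.95 (ap). Between the controls themselves, UAS-wge against ey-Gal4, none of the 8 probe sets was called by limma, 2 had an unadjusted p under 0.05, and 4.99% of all probe sets were called in either direction. The nearest were nub, at -0.62 ± 0.23 with an unadjusted p of 0.0145 and an adjusted p of 0.173, and ap, at -0.60 ± 0.25 with 0.0284 and 0.26. The other 6 had unadjusted p-values of at least 0.05.

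The sizes of these changes were compared between genes, each represented by its brightest probe set, by the difference of 2 log2 values within an array in the 3 ey>wge arrays against the 6 controls. Of 10 pairs, 6 passed a two-sided exact permutation test with Benjamini-Hochberg adjustment over the 10, each at the smallest p this design allows (0.0238, adjusted 0.0397). The change of ap exceeded that of nub by 1.34, that of Dr by 1.30 and that of pdm2 by 2.69 on the log2 scale. On 4 of the 6 control arrays pdm2 did not exceed the 40th percentile, so the size of its differences depends on the pseudocount. The change of vg exceeded that of pdm2 by 1.96 (1.96 and 1.64 at pseudocounts of 1 and 64) and that of nub did so by 1.35 (0.97 and 1.53), and pdm2 minus Dr was -1.38 (-1.05 and -1.48). The difference between nub and Dr was -0.03 (adjusted p = 0.833), and those of ap over vg (0.72), vg over nub (0.62) and vg over Dr (0.58) did not pass either (adjusted p = 0.238 each, exact permutation test). With a pseudocount of 64, 6 pairs passed again at the same adjusted p. With a pseudocount of 1 none passed, the lowest adjusted p being 0.0595, while the differences of ap from nub (1.43) and Dr (1.36) were about as large. None passed when 1 of these 9 arrays was left out. Fewer arrays raise the smallest p this test allows, and without an ey>wge array no pair could have passed. Those fits therefore cannot show whether the differences held.

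Marker genes of other tissues were set beside the result. Of the 8 adult muscle precursor markers, 5 have a named probe set. Their summed signal was 980.2 to 1080 in ey>wge discs, against 1418 to 1767 in UAS-wge discs and 1516 to 1991 in ey-Gal4 discs. That difference lay in Nrt, the only one of the 5 that fell (-1.47, adjusted p = 2.95e-05), while twi, zfh1, htl and Him were at 0.33, 0.01, -0.16 and 0.10 and did not pass. Of the 8 neuroblast and central nervous system markers, with sums of 1395 to 1472 in ey>wge discs, against 1577 to 2017 in UAS-wge discs and 1942 to 2041 in ey-Gal4 discs, the 3 that fell were pros, brp and nSyb. The others, ase, dpn, wor, insc and mira, were at -0.52 to 0.46 and did not pass. Against ey-Gal4 alone 3 of the 8 fell, and against UAS-wge alone 1.

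Of the 6 muscle markers with a named probe set, 1 rose against both controls (Act87E, 0.70, adjusted p = 0.024), and their sum was 5151 to 6147 in ey>wge discs, against 2400 to 3441 in UAS-wge discs and 5015 to 10890 in ey-Gal4 discs. Against UAS-wge alone, 2 of the 6 rose, with a median of 0.92, and against ey-Gal4 alone none rose, with a median of -0.34. Of 3 tracheal markers tested, vvl rose against both controls (1.32, adjusted p = 0.0247). Taken alone, ey-Gal4 gave 1 tracheal marker higher and UAS-wge none. Of 7 hemocyte markers, 6 fell against both controls, with sums of 2138 to 2389 in ey>wge discs, against 10150 to 16460 in UAS-wge discs and 1945 to 2550 in ey-Gal4 discs. That difference lay in the UAS-wge discs: all 7 fell against UAS-wge alone and none against ey-Gal4 alone. None of the 3 fat body markers tested passed. The 8 eye-field and retina genes all fell in ey>wge discs, with a median change of -1.54. The part of these shifts in the rise of the selectors was not tested.

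With the allele pair Su(var)3-9[1]/[2], ap, vg, nub and Dr were lower than in ey>wge discs. With vg 1641470_s_at left out again, 5 of 7 fell, the same that had risen, where 4.57% of all probe sets tested fell in this comparison. The allele-pair arrays lay below all ey>wge arrays for 6 of the 7, where 13.6% of all did so. Since both comparisons use the ey>wge arrays, their counts are not independent. The 5 changes lay between -1.52 and -2.04, and mean signals of these probe sets were 21.3% to 30.6% of those in ey>wge discs.

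ap 1624412_at read 410.7, 488.6 and 259.2 in allele-pair discs, against 1313.5 to 1368.1 in ey>wge discs. The groups were far apart, and the change was -1.80 ± 0.25 (adjusted p = 0.000332). ap 1639498_a_at read 105.4, 70.8 and 81.3 in allele-pair discs, against 190.5 to 325.5 in ey>wge discs, a change of -1.52 ± 0.33 (adjusted p = 0.0121). vg 1623484_at read 88.8, 100.3 and 52.5 in allele-pair discs, against 320.8 to 480.8 in ey>wge discs, and changed by -2.04 ± 0.32 (adjusted p = 0.00126). Both genes had replicate 3 as the lowest allele-pair array and replicate 2 as the highest on these brighter probe sets. vg 1641470_s_at read 3.7, 36.6 and 4.9 in allele-pair discs, against 47.2 to 149.2 in ey>wge discs, and was called lower (adjusted p = 0.0156). Of its allele-pair arrays only replicate 2 exceeded the 40th percentile, and its fitted change was -1.06 with a pseudocount of 64 and -3.22 with 1, where the call was lost (adjusted p = 0.0553).

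nub 1639500_at read 224.3, 282.3 and 238.9 in allele-pair discs, against 805.9 to 868.0 in ey>wge discs. The allele-pair arrays agreed closely with one another, and the change was -1.69 ± 0.23 (adjusted p = 0.000256). nub 1626836_at read 8.5, 6.0 and 42.2 in allele-pair discs, against 6.7 to 13.0 in ey>wge discs, and its change of 0.34 ± 0.48 did not pass (adjusted p = 0.741). The probe set 1630736_at read 11.3, 25.8 and 3.2 in allele-pair discs, against 7.0 to 24.0 in ey>wge discs, and the groups overlapped. pdm2 read 35.8, 13.3 and 3.5 in allele-pair discs, against 51.8 to 70.8 in ey>wge discs. The pdm2 groups did not overlap, but the change of -1.26 ± 0.42 did not pass (adjusted p = 0.0774). It passed without allele-pair replicate 1, its highest array, at -1.63 (adjusted p = 0.0116). That fit keeps only the allele-pair arrays with the trend in gene span, and 1846 probe sets were called lower in it, against 631 with all arrays. On replicate 1 alone pdm2 was at -0.51. Dr read 123.5, 228.1 and 94.9 in allele-pair discs, against 400.7 to 780.4 in ey>wge discs, and changed by -1.99 ± 0.30 (adjusted p = 0.000752). Here too replicate 2 was the highest and replicate 3 the lowest of the allele-pair arrays.

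The lower signal was also present on allele-pair replicate 1, the array without the trend in gene span. Relative to the ey>wge mean of log2 values it was lower by the following amounts: ap changed by -1.67, vg by -1.88, nub by -1.82, Dr by -2.15 and pdm2 by -0.51. In replicate 2 the values were -1.43, -1.73, -1.51, -1.34 and -1.33 in the same gene order, and in replicate 3 they were -2.31, -2.50, -1.74, -2.48 and -1.92. Replicate 1 was also fitted as the only allele-pair array, where the dimmer probe sets were at -1.25 (ap) and -2.49 (vg). A lone array has no spread of its own, so only sizes of change are given from that fit. With the trend in gene span removed from every array, the changes were -1.62 for ap, -1.86 for vg, -1.48 for nub and -1.83 for Dr, all still called. The dimmer ap probe set lost its call without ey>wge replicate 1 (limma adjusted p = 0.07) or 3 (0.0615) or allele-pair replicate 2 (0.0607). The dimmer vg probe set lost its call without ey>wge replicate 1 (0.0805) or 3 (0.0882) or allele-pair replicate 3 (0.0736). The dimmer vg probe set lost it too when only the groups compared were fitted (0.0699).

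The wge probe set itself was lower in allele-pair discs than in ey>wge discs, by -0.72 ± 0.20 (adjusted p = 0.0358). With replicate 1 as the only allele-pair array it was at -0.27, and it did not pass with the trend in gene span removed (-0.56, adjusted p = 0.0598). Its lowest array was replicate 3, also the lowest for Dr and for the brighter probe sets of ap and vg, while replicate 1, the highest for wge at 875.4, was below replicate 2 for these probe sets. Of 6 muscle markers with a named probe set among 8, all fell, with a summed signal of 1527 to 2879 in allele-pair discs, against 5151 to 6147 in ey>wge discs. The adult muscle precursor sum was 534.3 to 1040 in allele-pair discs, against 980.2 to 1080 in ey>wge discs. The fat body sum over 3 genes was 662.8 in allele-pair replicate 1, against 124.3 and 174.5 in the other allele-pair arrays and 136.0 to 164.2 in ey>wge discs. The part of wge level, of these markers and of the trend in gene span in the lower selector signals was not tested.

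**Figure D3:**
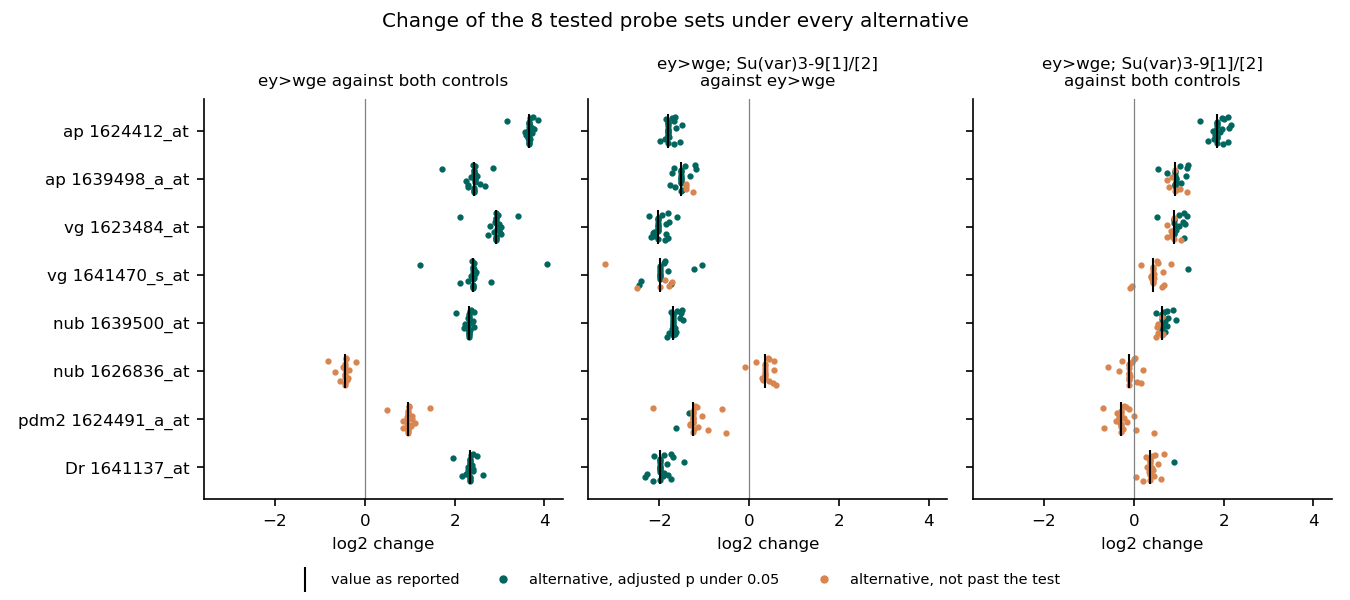
Change in log2 signal of the 8 tested probe sets under every alternative analysis (points, coloured by whether the adjusted p is under 0.05) beside the reported value (vertical bars), for ey>wge against both controls and for the allele pair against ey>wge and against both controls. Points to the right of 0 are higher in the first-named group; in the first comparison every called probe set keeps its call, and in the third only the brighter ap probe set keeps its call in all.

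Compared with the parental controls, allele-pair discs kept a higher ap signal. In this comparison 8.46% of all probe sets tested rose, 1169 higher beside 1751 lower, and 4 of the 8 described here rose: both ap probe sets, vg 1623484_at and nub 1639500_at. The share of all calls that were higher was 40%, and it was 49.2% after quantile normalization and 52.9% after centring arrays on their medians. Median centring raised the change of all probe sets by 0.12 at the median. The changes given next moved by about as much, to 1.97 for ap, 1.01 for vg and 0.74 for nub, and the 4 calls stayed.

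ap 1624412_at was 1.85 ± 0.22 above both controls (adjusted p = 9.31e-06), with the lowest allele-pair array at 259.2 and the highest control array at 163.3. It was called with each of the 12 arrays left out and in the 12 other alternatives, and was at 1.98 with replicate 1 alone. vg 1623484_at was 0.89 ± 0.28 above (adjusted p = 0.0301), and its arrays did not overlap with the controls either, the lowest being 52.5 against a highest control of 49.3. No overlap in this direction was found for 6.08% of all probe sets tested. The dimmer ap probe set was at 0.91 ± 0.29 (adjusted p = 0.0312) and nub at 0.63 ± 0.20 (adjusted p = 0.0297), and both overlapped with the controls.

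These smaller calls rested on single arrays. The call for vg was lost without ey-Gal4 replicate 1 (adjusted p = 0.058), UAS-wge replicate 3 (0.0566), allele-pair replicate 1 (0.0613) or allele-pair replicate 2 (0.15). The call for nub was lost without ey-Gal4 replicate 3 (0.0635), UAS-wge replicate 3 (0.0599), or allele-pair replicate 2 (0.139) or 3 (0.0664). For the dimmer ap probe set it was lost without ey-Gal4 replicate 1 (0.059), UAS-wge replicate 1 (0.064), or allele-pair replicate 1 (0.0815), 2 (0.0569) or 3 (0.078). With allele-pair replicate 1 as the only array of its group, the changes were 1.05 for vg, 0.49 for nub and 1.18 for the dimmer ap probe set. A single array gives no spread of its own to test them against. Dr at 0.36 ± 0.26 (adjusted p = 0.372), vg 1641470_s_at at 0.42 ± 0.40 (0.524), pdm2 at -0.29 ± 0.36 (0.648) and nub 1626836_at at -0.10 ± 0.42 (0.907) did not pass.

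On the brightest probe sets the order of group means was the same for ap, vg, nub and Dr: ey>wge discs highest, allele-pair discs next and the controls lowest. For ap and vg the allele-pair arrays lay above all control arrays, and for nub and Dr they overlapped with them. For ap the means were 386 ± 117 in allele-pair discs, 1346 ± 28.6 in ey>wge discs, 72.9 ± 16.2 in UAS-wge discs and 120.4 ± 38.7 in ey-Gal4 discs (SD, n = 3 each). For vg they were 80.5 ± 24.9, 377.3 ± 89.8, 42.2 ± 8.93 and 30.4 ± 15.4 in the same order of groups. For nub they were 248.5 ± 30.2, 833.4 ± 31.7, 126.1 ± 43.0 and 197.6 ± 39.1, and for Dr in allele-pair discs 148.8 ± 70.1, overlapping with the controls. In these 4 genes the controls were neighbours in the order of means and did not differ past the test. For pdm2 the allele-pair mean, 17.5 ± 16.6, lay between those of UAS-wge and ey-Gal4 discs.

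Other genes of the wing selector network were taken from a list ordered by role. Of 41 genes listed as partners, targets or inputs, 32 have a named probe set and all of these were tested. Listed genes without a named probe set, and so not measured, were Bx, Ser, Dl, sd, hth, Ubx, wg, vn and N. In ey>wge discs against both controls, 6 rose and 1 fell, where 0.897% of all probe sets rose and 2.07% fell. Their median change was 0.08, beside a median of 0.01 over all probe sets.

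Of 7 partners and targets of Apterous, none rose and 1 fell, and their median was -0.06. The integrin subunit gene if, expressed ventrally in the wing disc, fell by 0.94 ± 0.18 on the log2 scale (adjusted p = 0.00412), with a mean of 364.1 in ey>wge discs, against 744.6 in UAS-wge discs and 676.9 in ey-Gal4 discs. Chip (Chi), the partner of Apterous, was at -0.06 ± 0.12, and fng, a glycosyltransferase that ap activates in the wing disc, at 0.08 ± 0.09 with means of 7043 in ey>wge discs, against 6882 in UAS-wge discs and 6451 in ey-Gal4 discs. Chi was named after its values were seen. The gene second by adjusted p, trn, was at -0.45 ± 0.13 (limma adjusted p = 0.0728). Against UAS-wge alone trn was called lower (-0.59, adjusted p = 0.0308), and against ey-Gal4 alone it was not (-0.31, 0.371). The fng groups lay close together where those of ap did not.

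Of 9 Vestigial targets tested, 2 rose: kni (0.84 ± 0.18, adjusted p = 0.0114) and its paralogue knrl (0.83 ± 0.20, adjusted p = 0.0314), which act in placing wing veins. Both passed against ey-Gal4 alone, but not against UAS-wge alone (kni 0.64, limma adjusted p = 0.125, knrl 0.67, 0.167). The median of the 9 was 0.09. The partner gene sd (Scalloped) had no named probe set and was not measured. Of 7 pouch and hinge factors, tsh, a zinc-finger gene of the hinge and also of the eye field, rose by 0.66 ± 0.14 (adjusted p = 0.0114), while rn, expressed in the wing pouch, was at -0.57 ± 0.29 (0.472). Taken alone, the controls gave 0.73 for tsh against UAS-wge (limma adjusted p = 0.0133) and 0.58 against ey-Gal4, which did not pass (0.0588). Of 9 upstream inputs, 3 rose. The Hox gene Antp changed by 4.04 ± 0.34 (adjusted p = 7.49e-07), with means of 707.9 in ey>wge discs, against 19.9 in UAS-wge discs and 39.2 in ey-Gal4 discs. The UAS-wge mean lay below the 40th percentile of those arrays (24.5 to 27.4), so the size of the difference to that control is uncertain. The Iroquois genes caup (0.82 ± 0.14, adjusted p = 0.00167) and ara (0.71 ± 0.15, adjusted p = 0.0107), which pattern the notum and the dorsal eye, also rose.

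In allele-pair discs against ey>wge discs, 9 of the 32 fell and none rose, where 4.57% of all probe sets fell, with a median of -0.34, beside -0.08 over all probe sets. That lower median came mostly from allele-pair replicates 2 and 3: with replicate 1 as the only allele-pair array it was -0.07. Only sizes of change are given from that fit, since 1 array has no spread of its own. With the trend in gene span removed, 6 fell and 1 rose, with a median of -0.17. Both fits were added for these genes, for wge and for chromosomal neighbours after the data had been seen. Antp fell (-2.44 ± 0.39, adjusted p = 0.0013) and was also at -2.44 with replicate 1 only. tsh (-0.87 ± 0.16, adjusted p = 0.00465) fell with all arrays and was at -0.58 with replicate 1 only. kni was at 0.29 ± 0.21 (0.446), caup at -0.43 ± 0.16 (0.126) and ara at 0.04 ± 0.18 (0.931). The 7 others that fell with all arrays, at -0.68 to -1.48, were caps, salm, salr, fj, ds, Egfr and mirr. With replicate 1 only they were at -0.32 to -0.94. Of these 7, caps and fj were named by rule and the others after their values were seen. None of these 7 had been called in ey>wge discs against both controls.

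**Figure D4:**
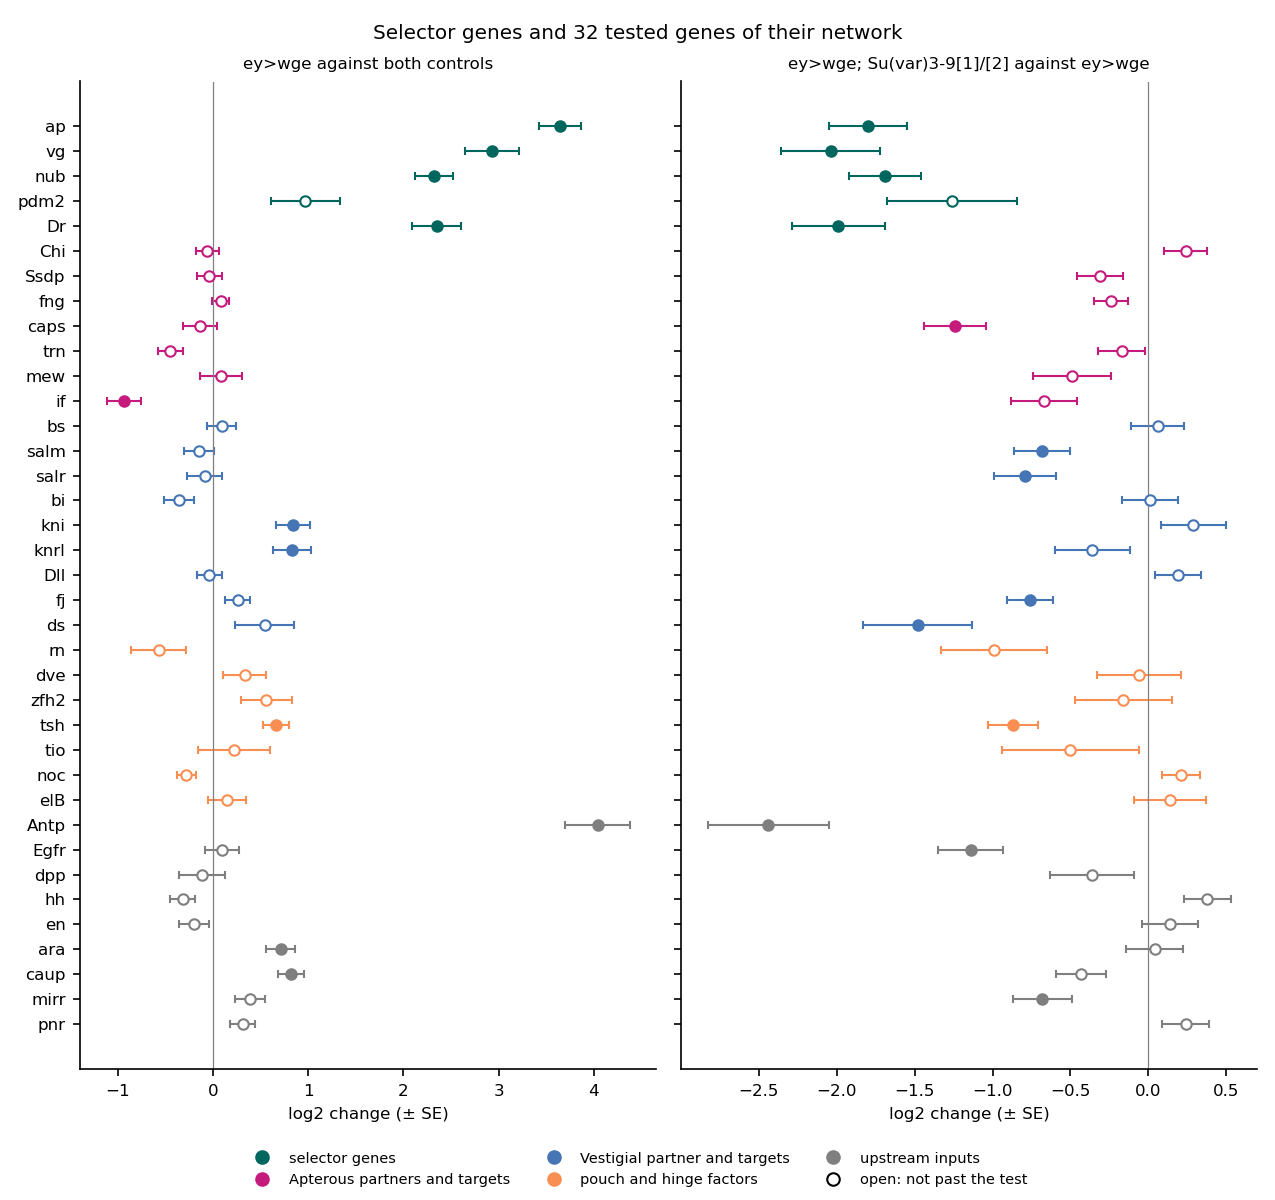
Change in log2 signal, with its standard error, of every tested network gene, coloured by list, for ey>wge against both controls and for the allele pair against ey>wge, with the 5 selectors at the top. In the first comparison Antp, at 4.04, is the only listed gene other than the selectors above 0.84, and in the second it is the lowest at -2.44.

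The chromosomal neighbours of the selectors were examined next. ap and vg lie on chromosome arm 2R, nub and pdm2 on 2L and Dr on 3R, and nub and pdm2 lie 29.0 kb apart with 1 gene starting between them. Among the 3 nearest genes with a named probe set on each side of each selector, 25 genes in all, 18 were tested. In ey>wge discs against both controls none rose and 1 fell, where 0.897% of all probe sets rose and 2.07% fell, so that 0 of 18 higher is near the background, with changes of -1.43 to 0.36 and a median of -0.05. The one that fell was scaf, a serine protease homologue gene near ap, by 1.43 ± 0.23 on the log2 scale (adjusted p = 0.000686). In allele-pair discs against ey>wge discs scaf fell again (-2.33, adjusted p = 4.52e-05), with Nmda1 near vg (-0.62, adjusted p = 0.0114), and none rose. With replicate 1 as the only allele-pair array, scaf was at -1.55 and Nmda1 at -0.76. scaf therefore moved opposite to ap in the first comparison and in the same direction in the second.

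**Figure D5:**
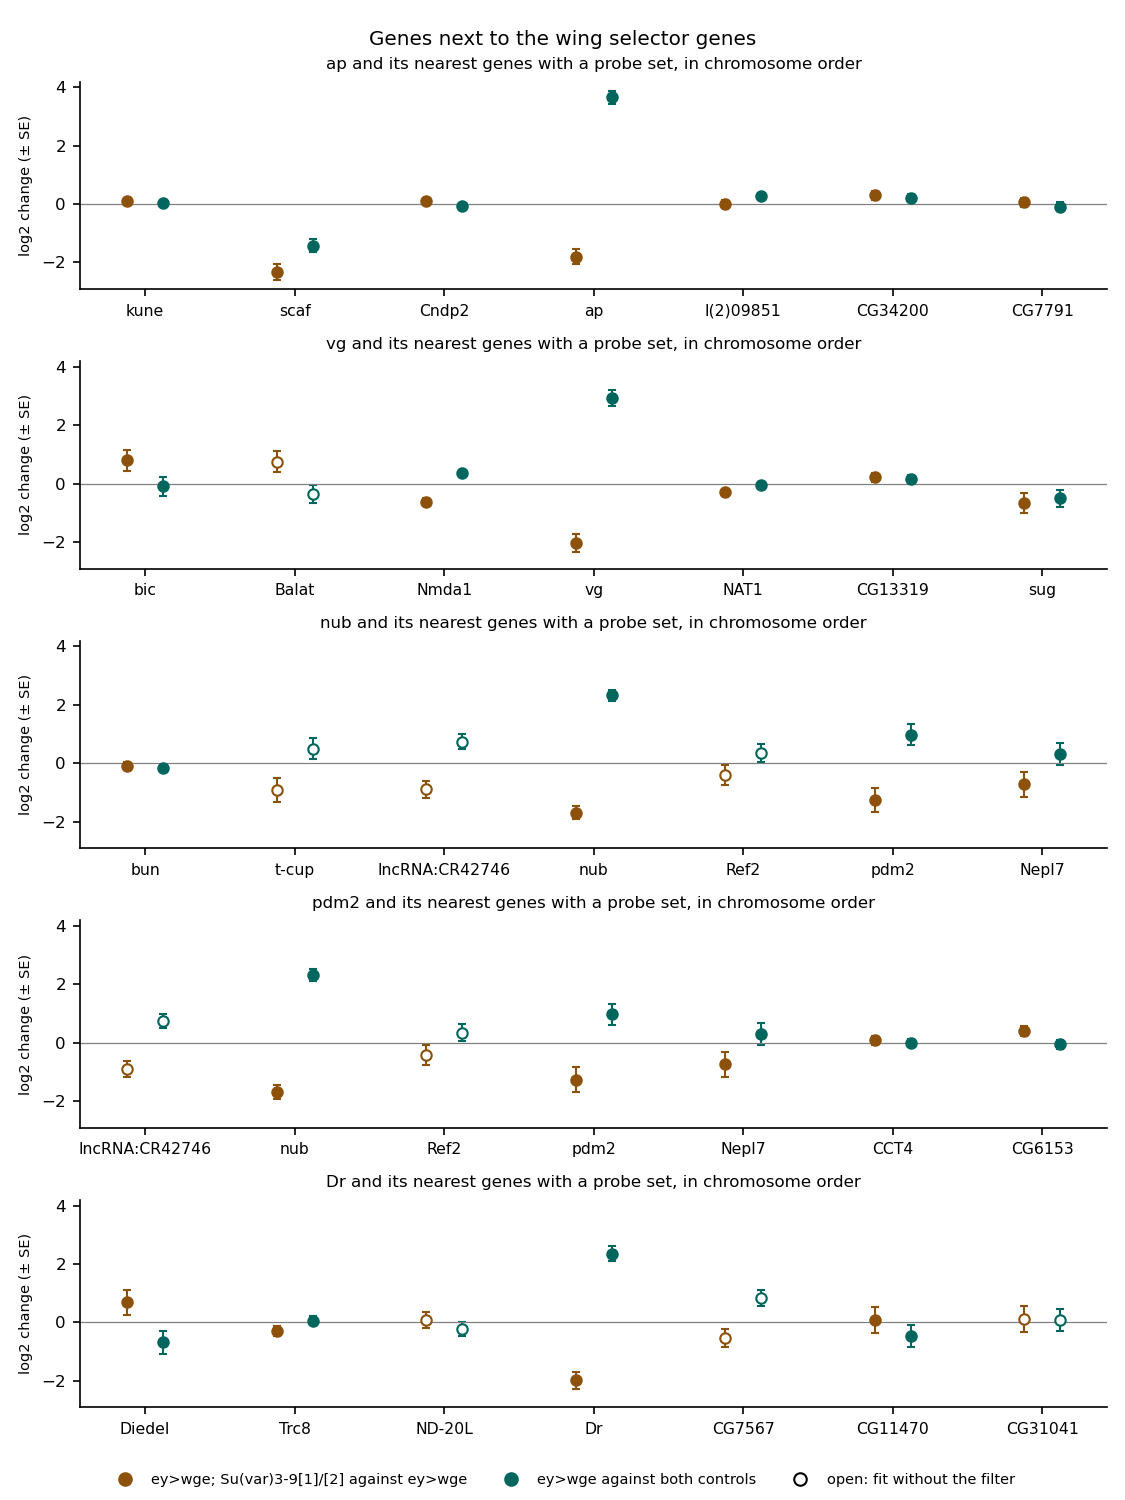
Change in log2 signal of each selector and of its nearest genes with a named probe set, in order along the chromosome, for ey>wge against both controls and for the allele pair against ey>wge. The selectors ap, vg, nub and Dr stand above their neighbours in the first comparison and below all of them but scaf in the second.

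Across the 12 arrays the selectors resembled one another, given here as a description, since the arrays form 4 genotype groups. The Pearson correlation of log2(signal + 16) was 0.946 between ap and nub, 0.938 between nub and Dr, 0.906 between ap and vg, 0.91 between vg and Dr, 0.894 between vg and nub and 0.889 between ap and Dr. pdm2 was less like the rest, at 0.578 with ap, 0.655 with vg, 0.708 with nub and 0.731 with Dr. nub 1626836_at, which exceeded the 40th percentile on only 3 of the 12 arrays, was negative with every other probe set (-0.158 to -0.357).

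Among all other tested single-gene probe sets, Antp was in the 5 nearest of ap, vg, nub and Dr, in first place for vg (0.95), nub (0.956) and Dr (0.934). The probe set nearest to ap was that of grn, a GATA factor gene (0.973), which averaged 325.6 in allele-pair discs, 601.2 in ey>wge discs, 117.9 in UAS-wge discs and 132.9 in ey-Gal4 discs. The others nearest to ap were Phk-3 (0.94) and Ilp8 (0.926), which encodes a hormone released by damaged discs. For vg they were CG14930 (0.899), grn (0.892) and Tom40 (0.88), and for nub Alp7 (0.923), grn (0.923) and magu (0.921). For Dr they were caup (0.903), CG14930 (0.9) and CG5966 (0.896). pdm2 shared none of these: its nearest were Ogdh (0.89), CG3502 (0.889), CDase (0.883), Sox15 (0.883) and CG9021 (0.874).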

How the data were processed

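The authors deposited MAS5 signal intensities, 1 per probe set and array, on a linear scale. Per the submitters' processing notes the tool was MAS5, whose version and settings are not given in the sources used here. Leaving out 2% of probe sets at each end, every array's mean was 500.01 or 500.02, so arrays had been scaled before deposition. Detection calls were not used, and no batch date is given. The number of arrays limits the precision.

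From these values log2(signal + 16) was computed without further normalization. The 183 Affymetrix controls and probe sets below the filter on low signals (40th percentile, 3 arrays) were left out. One mean per genotype was fitted to all 12 arrays with limma 3.58.1 in R 4.3.3 (eBayes with a variance trend, two-sided), tested on simulated data beforehand. Signals not above the percentile in a group give only a bound. Symbols were those of the platform annotation, and spans those of a table of RefSeq genes. Of the probe sets tested, 10811 had 1 symbol. Positions of the RefSeq genes gave the spans, the order of neighbours and the distance between nub and pdm2. Probe coordinates and sequences are not used here, since the sources name no build for the array.

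The genes, lists and tests were chosen with earlier results of these data known. The text names all probe sets of the 5 genes, up to 4 genes of each list by adjusted p, the 5 probe sets nearest to each gene by correlation, its 3 nearest genes on each side, and wge. The labels call the replicates biological. Arrays of equal replicate number were not paired in the main fit. Their deviations from group means correlated weakly, between -0.049 and 0.083. Still, 9 of the 12 arrays correlated best with an array of their own number. Whether the numbers mark batches was not tested. Alternatives changed the normalization, pseudocount, filter, variance model, array weights, groups fitted and arrays included.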

Additional observations from a re-analysis of the deposited data

How the results depend on the processing

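Of 1074 values of the selectors' changes under alternative analyses, 1037 kept their direction and side of the threshold, 32 lost a call, 5 gained one and none of the called values changed sign. For ey>wge against both controls all 177 were kept. Allele-pair calls against the controls were 4 and became 2 with no filter, 1 when only the groups compared were fitted, 1 with allele-pair replicate 1 only, and 1 to 4 with 1 array left out. With array weights vg 1641470_s_at (adjusted p = 0.00345) and Dr (0.000768) also passed there, and pdm2 passed in allele-pair against ey>wge discs (0.00351). In that fit 2522 of all 13817 probe sets rose in allele-pair discs against both controls, beside 1169 in the main fit. Against ey>wge discs 2748 fell in it, beside 631 in the main fit. Of the gene pairs, 6 passed, 0 with a pseudocount of 1 and 0 with any of 9 arrays left out, where the smallest p the test allows is larger.

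Counts over all probe sets moved more. They were 410 for ey>wge against both controls (675 with array weights, 730 with only the groups compared, 248 to 630 with 1 array left out), 502 against ey-Gal4 (321 without a variance trend, 831, 847, 299 to 790) and 511 against UAS-wge (899, 866, 329 to 761). For the allele pair against ey>wge they were 939 (281 without a variance trend, 4409 with array weights, 207 with only the groups compared, 177 with allele-pair replicate 1 only, 305 to 2943 with 1 array left out), and against both controls 2920 (6454 with array weights, 662 with replicate 1 only, 1709 to 4238 with 1 array left out). For UAS-wge against ey-Gal4 they were 690 (456 to 966 with 1 array left out). Fewer arrays enter the leave-one-out, single-replicate and group-limited fits, and the cause of the other shifts was not tested.

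With the replicate number as a block, the count of selector probe sets called was the same as in the main fit for every comparison. Those counts include vg 1641470_s_at, and the share of all probe sets called with the block is not given here. As stated above, 9 of 12 arrays correlated best with their own number. At low signal the pseudocount sets the size of a change: vg 1641470_s_at was at 4.05 with a pseudocount of 1 and 1.23 with 64.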

Other observations

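The selectors differed in how closely the 3 ey>wge arrays agreed. ap 1624412_at varied by 2.13% (coefficient of variation of signal) and nub 1639500_at by 3.8%, while vg 1623484_at varied by 23.8% and Dr by 31.8%. On the log2 scale the SD of ap was 0.03 and that of nub 0.05 in ey>wge discs, smaller than in 97.7% and 93.8% of the probe sets tested, while Dr was at 0.50 beside a median of 0.24. In allele-pair discs the SD was 0.45 for ap and 0.16 for nub, beside a median of 0.36. It was 0.26 for ap and 0.43 for nub in UAS-wge discs, and 0.40 for ap and 0.27 for nub in ey-Gal4 discs. Whether these spreads differ between genes was not tested, and with 3 arrays each is imprecise.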
